A study of Homo sapiens with 16 samples.

Results

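Broad H3K9ac domains at gene ends were long stretches of acetylated chromatin in H69 cells that began, ended or lay close to a protein-coding gene. These cells are bile duct epithelium (cholangiocytes) of human origin that a virus had transformed, so they are 1 line and not primary tissue. They received vehicle, or recombinant human TGF-beta at 10 ng/ml, and were fixed after 16 h. Sequencing of immunoprecipitated chromatin (ChIP-seq) measured histone H3 acetylated at lysine 9 (H3K9ac) or lysine 27 (H3K27ac) and the transcription factor SMAD3, in 2 libraries per treatment and target (replicates 1 and 2 of each mark, replicates 4 and 5 of SMAD3). In the text, values are given in that order of replicates. No label ties a replicate to a culture of its own, so the p-values given here measure the spread between these libraries, which may be technical.

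The domains were chosen by measured H3K9ac peaks: peaks of the 4 H3K9ac libraries that shared 1 bp or more were joined on chromosomes 1 to 22 and X, and joined regions were kept if they spanned at least 5 kb, were called in all 4 libraries and lay within 1 kb of either end of a RefSeq protein-coding gene. This gave 198 domains out of 68046 merged regions, of which 33894 were called in all 4 libraries and 17252 of those lay at gene ends. H3K9ac values are therefore a description of what was selected, and tests are given only for H3K27ac and SMAD3, whose peaks the selection did not use. Just inside the threshold lay the regions at FBLIM1 (5006 bp) and KMT2D (5012 bp), and just outside it those at TRIO (4999 bp), GIT1 (4997 bp) and PDXK (4992 bp).

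H3K9ac is placed by acetyltransferases such as GCN5 and PCAF and marks active promoters, where it usually forms a short block on the first nucleosomes of the gene. Stretches that run for several kilobases along a gene are known mostly from genes that are strongly transcribed or that define a cell's identity. TGF-beta receptors phosphorylate SMAD3, which enters the nucleus with SMAD4 and binds short SMAD boxes, often beside AP-1 factors. H3K27ac marks active promoters and enhancers alike.

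The sequence just before the gene start is shown for 4 domains in which SMAD3 peaks lengthened after TGF-beta (SMAD7, DVL1, BHLHE40 and JUNB). It is also shown for 2 in which SMAD3 was not called (HIF1A and AJUBA). In the 125 domains profiled below, SMAD3 covered 63.2 and 72.9% of the 250 bases before the start under vehicle. After TGF-beta it covered 78.0 and 77.6% of them. Coverage was higher in the 250 bases after the start, at 79.5 and 85.3% under vehicle and 87.4 and 88.9% after TGF-beta. The shown stretch lies inside the domain at SMAD7, BHLHE40 and AJUBA, partly inside at JUNB and HIF1A, and just outside at DVL1. Each run is the 250 bases before an annotated start, 5′ to 3′ on the gene's strand, from RefSeq GRCh38.p14. Capitals mark the SMAD box CAGAC, or GTCTG where it lies on the other strand. The AP-1 motif TGANTCA, which can share its last letters with a SMAD box, was also searched on both strands and is in none of the 6.
SMAD7, chr18:48950966-48951215, minus strand: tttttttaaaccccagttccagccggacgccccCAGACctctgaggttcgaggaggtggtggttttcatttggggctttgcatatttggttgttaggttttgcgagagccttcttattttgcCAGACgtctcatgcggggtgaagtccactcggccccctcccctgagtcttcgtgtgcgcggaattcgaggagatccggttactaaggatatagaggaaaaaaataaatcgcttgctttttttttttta
DVL1, chr1:1349419-1349668, minus strand: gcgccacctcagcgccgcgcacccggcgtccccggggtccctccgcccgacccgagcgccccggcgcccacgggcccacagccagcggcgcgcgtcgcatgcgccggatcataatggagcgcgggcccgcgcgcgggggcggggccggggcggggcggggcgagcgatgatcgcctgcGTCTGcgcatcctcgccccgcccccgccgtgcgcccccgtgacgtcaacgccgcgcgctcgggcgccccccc
BHLHE40, chr3:4979187-4979436, plus strand: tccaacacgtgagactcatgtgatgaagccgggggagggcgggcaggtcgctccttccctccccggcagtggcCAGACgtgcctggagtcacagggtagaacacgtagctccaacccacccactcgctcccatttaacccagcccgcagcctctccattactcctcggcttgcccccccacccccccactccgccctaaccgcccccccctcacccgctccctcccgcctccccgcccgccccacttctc
JUNB, chr19:12791236-12791485, plus strand: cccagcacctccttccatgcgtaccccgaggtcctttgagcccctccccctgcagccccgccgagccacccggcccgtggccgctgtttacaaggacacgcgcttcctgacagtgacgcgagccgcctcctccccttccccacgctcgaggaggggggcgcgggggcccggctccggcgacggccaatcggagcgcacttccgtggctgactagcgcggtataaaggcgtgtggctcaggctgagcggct
HIF1A, chr14:61695263-61695512, plus strand: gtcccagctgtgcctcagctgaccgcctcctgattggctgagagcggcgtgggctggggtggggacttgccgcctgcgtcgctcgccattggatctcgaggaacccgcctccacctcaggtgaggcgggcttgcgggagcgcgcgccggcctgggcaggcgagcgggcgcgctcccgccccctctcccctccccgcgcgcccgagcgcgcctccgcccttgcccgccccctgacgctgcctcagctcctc
AJUBA, chr14:22982552-22982801, minus strand: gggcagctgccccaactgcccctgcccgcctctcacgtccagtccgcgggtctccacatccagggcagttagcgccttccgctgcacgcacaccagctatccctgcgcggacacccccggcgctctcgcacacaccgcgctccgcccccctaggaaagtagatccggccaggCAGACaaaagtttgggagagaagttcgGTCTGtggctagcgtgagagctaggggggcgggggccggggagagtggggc

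The promoter table held 280 start sites of protein-coding genes inside or within 1 kb of the domains, for 180 genes at 149 domains, and 68 domains had 2 or more. Over the 300 bases from 250 before to 50 after a start, the median GC content was 69.5% at the domains, against 66.0% at 12400 starts with a gene-end region under 5 kb and 62.3% over all 22132 starts. A SMAD box was present at 48.2% of domain starts, at 42.3% of starts with a shorter gene-end region and at 44.8% of all starts. Among domains in which SMAD3 rose it was present at 60.9% of 64 starts, and at the other domains at 44.4% of 216. The AP-1 motif stood at 4.29% of domain starts, at 3.94% of starts with a shorter region and at 6.15% of all starts, and the values for the same 2 sets of domains were 9.38% and 2.78%. Starts of 1 gene overlap in sequence, so these shares are counts of letters in a window and carry no test. JUNB had no match to either motif in this window, and BHLHE40 had 3 SMAD boxes in the 300 bases, of which 1 is in the shown part. Among the starts where SMAD3 was not called, AJUBA had 2 SMAD boxes and HIF1A had 1, which lies after the start and is not shown. Matches were thus present in starts of both kinds.

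The domains spanned 5.01 to 22.6 kb, with a median of 5.94 kb and quartiles of 5.38 and 6.78 kb, whereas the 17054 constant gene-end regions under 5 kb had a median of 1310 bp. Domains made up 0.584% of the regions called in all 4 H3K9ac libraries and 3.0% of their length. Of the 198 domains, 108 were under 6 kb, 44 reached 7 kb and 8 reached 10 kb. The longest lay on NR2F2 (chr15:96330688-96353297, 22.6 kb), which encodes an orphan nuclear receptor. It was followed by BCL9L (18.7 kb), a coactivator of WNT signalling, by SIM2 (13.5 kb), a basic helix-loop-helix factor, and by FOXA2 (11.1 kb), a pioneer factor of endodermal tissues. ZFP36L1 (10.5 kb), which promotes decay of AU-rich mRNAs, TNFRSF1A (10.1 kb), a tumour necrosis factor receptor, and a locus known only as LOC128966704 (10.5 kb) were also over 10 kb.

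The domains leaned into genes. Of the 198, 152 lay within 1 kb of the outer start of a gene whose strand the promoter table gives. Another 3 lay only at an outer 3′ end, among them the longest domain, that of NR2F2. For 43 the strand was not in that table. In the 125 domains with exactly 1 such start, the domain reached a median of 1.23 kb upstream and 4.85 kb downstream of it, and 110 of the 125 reached further downstream than upstream. In 11760 shorter gene-end regions with 1 start, the medians were 0.419 kb upstream and 1.08 kb downstream. JUNB was one of 15 exceptions, since its domain (chr19:12781794-12791343) lay upstream and ended before the annotated start. A whole protein-coding gene lay inside 24 domains (12.1%), and 149 domains touched 1 gene, 34 touched 2 and 15 touched 3 or more, giving 261 genes in all.

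Genes of the actin cytoskeleton and of adhesion were often at a broad domain. Among all 19974 protein-coding genes, 1.31% had one. In the cytoskeleton and adhesion list it was 9 of 31 genes, namely ACTB and ACTG1 (cytoplasmic actins), ACTN4 and TPM1 (actin-binding proteins), TAGLN2, PFN1 (profilin), ITGB1 (the beta1 integrin), TNS3 and TNS4 (tensins). Domains lay at 4 of 16 genes of the epithelial to mesenchymal transition (ZEB2, CDH2, FOXC2, HMGA2) and 4 of 23 YAP targets (AMOTL2, F3, AJUBA, TGFB2). They also lay at 4 of 24 cell cycle genes (CCND1, CDKN1B, CDKN2A, CDK6) and 5 of 34 AP-1 and immediate early genes (JUNB, MYC, DUSP1, ZFP36L1, ZFP36L2). Among SMAD feedback genes and TGF-beta targets it was 4 of 33 (among them SMAD7, SMAD3 and BHLHE40). Ribosomal and translation genes (24), replication histone genes (20) and epithelial junction genes (21) had none, although 24, 20 and 19 of them carried an H3K9ac region in all 4 libraries. The lists were picked with earlier results of these data known, so their shares describe the domains and are not tested.

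The labelled cell type was checked on the same regions. Of 17 cholangiocyte markers 11 had an H3K9ac region in all 4 libraries, a share close to the 64.9% over all protein-coding genes, so this count does not set the cell type apart. KRT7, a keratin of bile duct epithelium, had a broad domain of 7.45 kb. CFTR, SPP1 and AQP1 had no H3K9ac region. Of 12 hepatocyte markers 5 had a constant region (summed length 6.87 to 8.6 kb per library, against 26.6 to 32.2 kb for the cholangiocyte list), and ALB, TTR and FGB had none. Of 12 mesenchymal and endothelial markers 3 had one (5.63 to 7.68 kb) and of 8 leukocyte markers 5 (3.48 to 4.8 kb), with none at PTPRC, COL3A1 or PECAM1. None of these 3 other lists had a broad domain, but only 1.31% of all protein-coding genes had one. Lists this short could thus hold none whatever the cell type, and this was not tested.

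**Figure D1:**
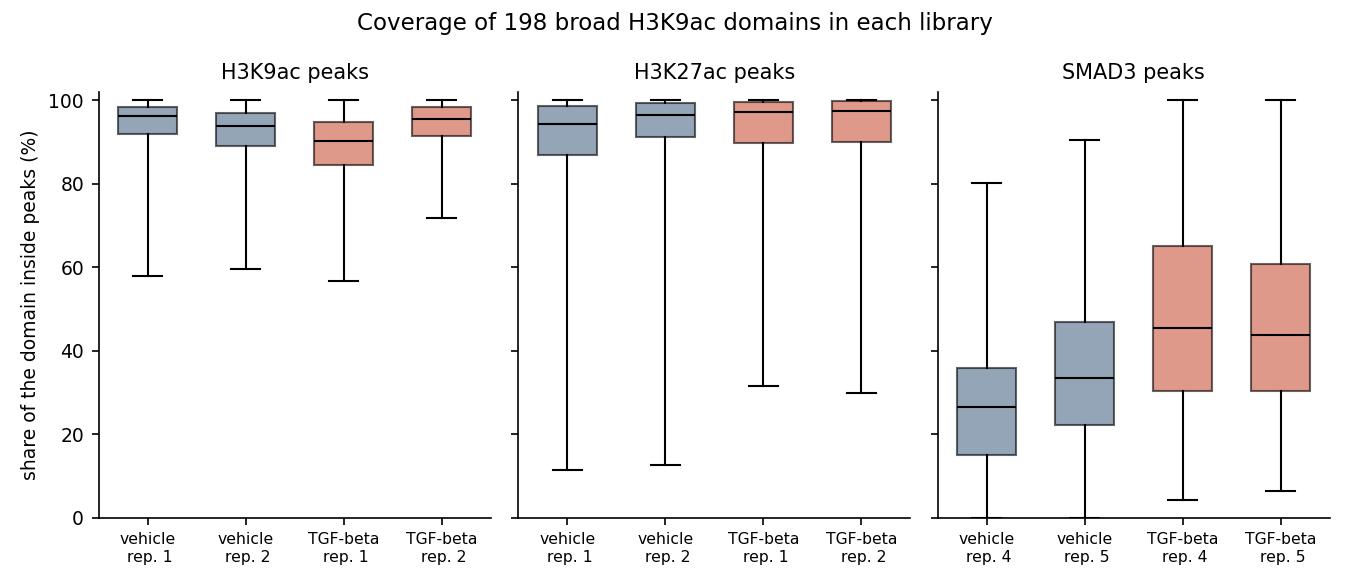
Share of each of the 198 domains inside peaks (%, vertical axis) in each library of the 3 targets. Boxes span the quartiles, the line is the median and whiskers reach the lowest and highest domain. Both marks fill most of a domain in all libraries, while the SMAD3 medians lie at 26.5 and 33.6% under vehicle and at 45.5 and 43.9% after TGF-beta.

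H3K9ac covered nearly the whole of a domain in each library, with medians of 96.1 and 94.0% under vehicle and 90.2 and 95.7% after TGF-beta. The libraries often split a domain into pieces, since the smallest gap between called peaks was 52 bp and the median number of pieces was 2 to 3. Only 115 of the 198 domains held at least 5 kb of peak in every library alone. H3K9ac length summed over all domains was 1.22 and 1.19 Mb under vehicle and 1.15 and 1.22 Mb after TGF-beta. The TGF-beta replicate 2 libraries of both marks ran on another lane (8) than the other mark libraries (7), and the part of the lane in any value was not tested.

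Individual domains changed little in H3K9ac length. The selection limits such changes, since domains were joined from these peaks, called in every library, and a length cannot exceed its domain. Both TGF-beta libraries were longer than both vehicle libraries in 38 domains (19.2%) and shorter in 65 (32.8%), beside 14.4% longer and 33.3% shorter among all 33894 regions called in all 4 libraries. With every library shifted to a common median of those regions, the split turned to 61 longer and 37 shorter. The centred log2 changes of length (TGF-beta minus vehicle, with 500 bp added) ranged from -0.44 to 0.74, and 197 of 198 lay within 0.5 of 0. That count is given without its share over all regions.

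The domain shared by PCED1B and AMIGO2, the second of which encodes an adhesion molecule with leucine-rich repeats, lengthened most. Its H3K9ac peaks spanned 3.28 and 3.37 kb with vehicle and 5.66 and 5.64 kb with TGF-beta (centred log2 change 0.74). The groups were far apart there, and large lengthening was also seen at BHLHE40 (0.37), a circadian and stress-responsive repressor, LTBP3 (0.37), which tethers latent TGF-beta to the matrix, LRP1 (0.35), an endocytic receptor, and TAGLN2 (0.35). Shortening was largest at LY6E (-0.44), which encodes a surface protein, where the lengths were 6.46 and 5.92 kb with vehicle and 3.78 and 4.77 kb with TGF-beta. PIM3 (-0.37), a kinase, COMMD3 with BMI1 (-0.35), MYO18A (-0.34), CSF1 (-0.29), the macrophage colony stimulating factor, and POLR2L with TSPAN4 (-0.28) followed.

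H3K27ac filled the same domains before and after TGF-beta. All 198 held H3K27ac peaks in all 4 libraries, with median coverage of 94.5 and 96.5% under vehicle and 97.1 and 97.3% after TGF-beta, and 115 were at least 90% covered in every library. In gene-end regions under 5 kb the medians were 72.1 and 75.8% under vehicle and 76.1 and 74.9% after TGF-beta. In regions of 5 kb or longer away from gene ends they were 98.9 and 99.8%, then 99.3 and 99.8%. Near-complete filling by H3K27ac was thus not particular to the domains at gene ends. Summed length was 1.19 ± 0.0208 Mb under vehicle and 1.21 ± 0.00206 Mb after TGF-beta (SD, n = 2 each), a ratio of 1.01 (exact two-sided permutation test, p = 0.667, where the smallest p this design allows is 0.333). A length cannot exceed the domain, so where H3K27ac already filled it, as at TNS3 with 6.12 kb of 6.12 kb in all 4 libraries, a rise had no room.

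Each domain was tested with limma on log2(length + 500 bp), fitted over all 24340 merged regions with a mean of at least 500 bp of H3K27ac. Over all regions 0.982% rose and 0.637% fell at an adjusted p under 0.05. Among the 198 domains limma called 1 higher and 0 lower. An unadjusted p under 0.05 in either direction was found at 27, a count given without its share over all regions and so not read as a result. The median log2 change of the domains was -0.01, against -0.02 over all regions tested.

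The domain called was that of GRIN2D and KDELR1 (chr19:48392615-48398777), an NMDA receptor subunit and the receptor that returns proteins to the endoplasmic reticulum. H3K27ac spanned 0.716 and 0.784 kb of its 6.16 kb with vehicle and 1.95 and 1.84 kb with TGF-beta. It was also the single domain that H3K27ac covered to less than 50% in all 4 libraries. Its log2 change was 0.92 (SE 0.0365, limma adjusted p = 0.0145), and the adjusted p was 0.0714 without vehicle replicate 1, 0.059 with no centring and 0.0664 in the wider window described next. FLRT2, an adhesion protein picked here after its values were seen, had a larger change that was not called: 0.678 and 1.12 kb with vehicle and 3.17 and 3.88 kb with TGF-beta (log2 change 1.52, SE 0.186, limma adjusted p = 0.0639).

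The chromatin beside the domains was also measured, by adding 5 kb on each side, as an alternative to the domain alone. In this window H3K27ac rose at 6 of 198 domains (3.03%) and fell at 11 (5.56%), where 16.6% of 57928 such windows rose and 16.7% fell over all regions. The shares among the domains lay below those over all regions, and the difference was not tested. The 6 rises lay at FLRT2, MTFP1, PDLIM7, IGF2BP1, BHLHE40 and PCED1B. At MTFP1, a mitochondrial fission factor, H3K27ac in the window of 15.8 kb spanned 6.32 and 6.51 kb with vehicle and 10.8 and 11.1 kb with TGF-beta (log2 change 0.62, SE 0.0746, limma adjusted p = 0.00257), although inside the domain it changed by 0.06. The falls included PIM3, with 15.2 and 16.0 kb with vehicle and 12.5 and 12.2 kb with TGF-beta (log2 change -0.44, SE 0.0706, limma adjusted p = 0.00696). LY6E fell as well (-0.42), along with ZNF598, CTBP2, NME3, CNN3, SQSTM1, MYO18A, INF2, MLLT6 and LAMA5. Of the 6 domains with the largest H3K9ac shortening, 3 (PIM3, LY6E and MYO18A) fell in H3K27ac over the wider window, and COMMD3, CSF1 and POLR2L were not called. Of the 6 with the largest lengthening, 2 (PCED1B and BHLHE40) rose and the others, among them LTBP3, LRP1 and TAGLN2, were not called. Windows of neighbouring regions overlap, and these genes were named after their values were seen.

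SMAD3 occupied part of each domain and reached further along it after TGF-beta. It covered a median of 26.5 and 33.6% of a domain under vehicle and after TGF-beta 45.5 and 43.9%, and 195 of 198 domains had a SMAD3 peak in all 4 libraries. Other H3K9ac regions shared these traits. Gene-end regions under 5 kb had medians of 28.8 and 34.9%, then 39.2 and 40.8%. Regions of 5 kb or longer away from gene ends had 20.8 and 28.3%, then 47.2 and 48.6%. Of gene-end regions of 3 to 5 kb, 98.5 to 99.4% held a SMAD3 peak in a given library. Coverage of at least 80% in both libraries was seen at 1 domain with vehicle and at 18 with TGF-beta. Per library such coverage was seen at 0.505 and 3.03% of domains with vehicle and at 14.6 and 9.6% with TGF-beta. In regions of 5 kb or longer away from gene ends it was 1.33 and 1.33%, then 10.7 and 6.67%. In gene-end regions under 5 kb it was 2.29 and 3.97%, then 6.37 and 6.78%. Summed SMAD3 length was 0.357 and 0.470 Mb under vehicle and 0.636 and 0.606 Mb after TGF-beta, a ratio of 1.5 (exact two-sided permutation test, p = 0.333, the smallest this design allows). Both TGF-beta libraries lay above both vehicle libraries, and the vehicle libraries themselves differed by more than the TGF-beta libraries did. Peak numbers over the genome moved the same way, with 22451 and 25268 SMAD3 peaks under vehicle and 33700 and 34413 after TGF-beta, and their part in the sum was not tested. With the same number of top-scoring peaks taken from each library, an alternative chosen after seeing the data, the ratio was 1.36.

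**Figure D2:**
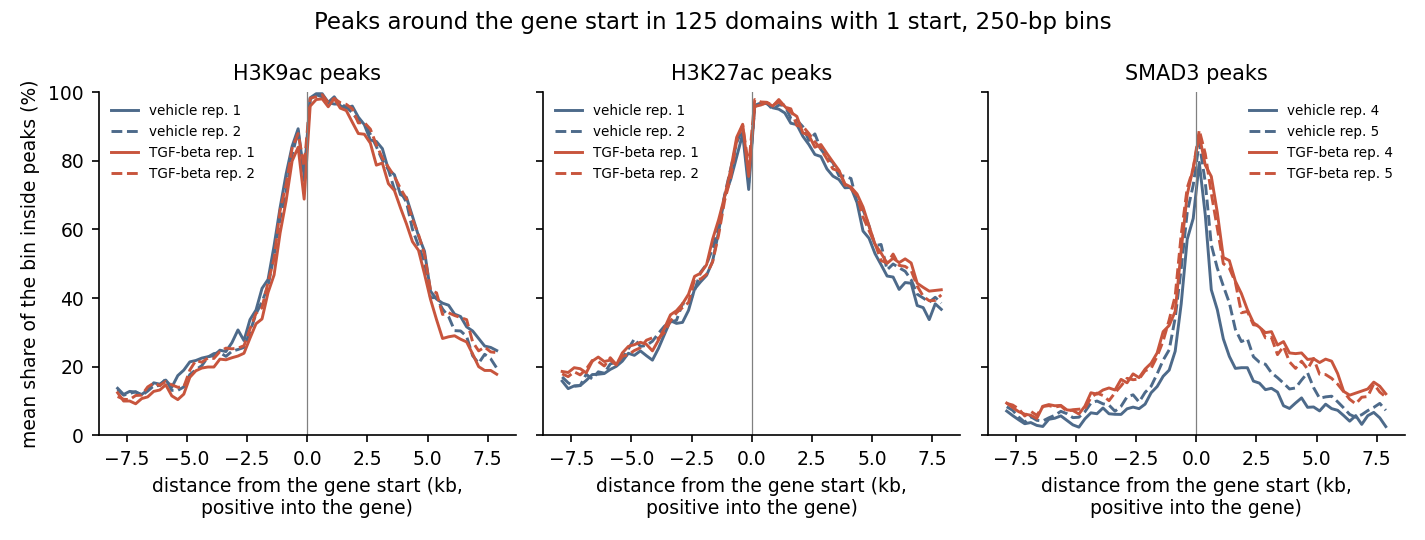
Mean share of each 250-bp bin inside peaks (%, vertical axis) against distance from the gene start (kb, positive into the gene) in the 125 domains with 1 start, with 1 line per library. H3K9ac and H3K27ac lines of all libraries run together, and SMAD3 lines with TGF-beta lie above those with vehicle on the gene side of the start.

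Along the gene, SMAD3 was most frequent at the start and thinned out on both sides. In the first 250 bp downstream of the start, SMAD3 covered 79.5 and 85.3% under vehicle and 87.4 and 88.9% after TGF-beta. In the bin that began 3 kb downstream it covered 13.7 and 18.2% under vehicle and 30.2 and 28.5% after TGF-beta. At the start the TGF-beta libraries lay closer to the vehicle libraries than at 3 kb, and this difference was not tested. In the bin that began 3 kb upstream the values were 7.73 and 11.2% under vehicle and 15.3 and 16.6% after TGF-beta. H3K9ac at 3 kb downstream covered 79.3 to 83.5% in the 4 libraries and H3K27ac 77.6 to 82.1%. Both marks dipped just upstream of the start, where the bin from -250 bp to 0 was covered to 68.8 to 78.3% by H3K9ac, while the first bin downstream was covered to 95.9 to 98.3%.

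The same limma test was fitted for SMAD3 over all 9923 regions with a mean of at least 500 bp of SMAD3 peak. Over all regions 7.26% rose and 0.998% fell. Of the 198 domains 195 were tested, and the other 3, among them FLRT2 and GNA11, were under the minimum. SMAD3 rose at 46 domains (23.6%), fell at 2 (1.03%) and was not called at 147. The median log2 change was 0.18 (quartiles -0.04 and 0.54) against -0.03 over all regions tested, so that 137 of 195 domains lay above 0 compared with 44.3% of all regions. Gene-end regions under 5 kb rose in 293 of 7461 cases (3.93%), those of 3 to 5 kb in 111 of 1230 (9.02%), and regions of 5 kb or longer away from gene ends in 32 of 73 (43.8%). A peak cannot outgrow its region, so short regions leave less room for a rise, and the part of length in these shares was not tested.

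**Figure D3:**
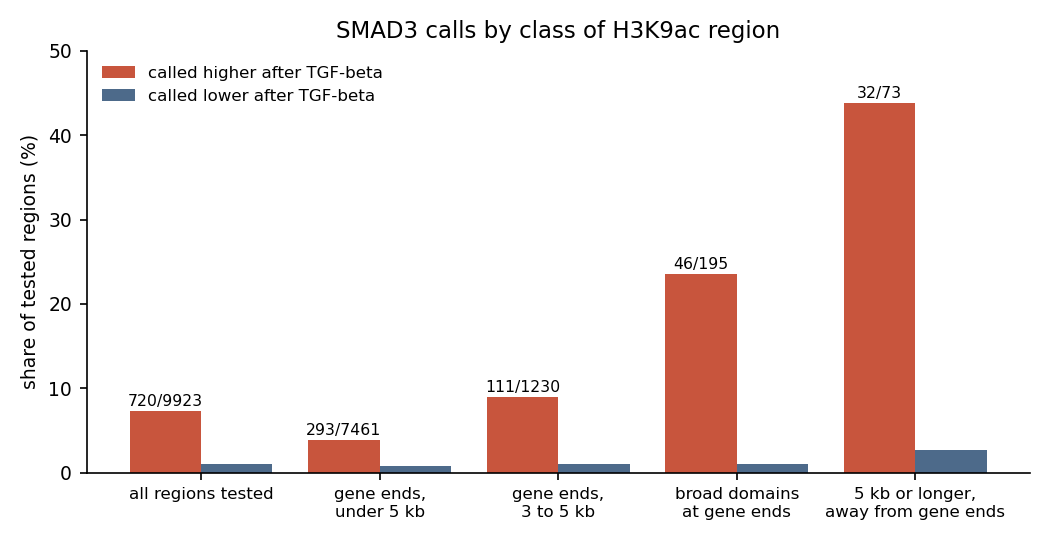
Share of tested H3K9ac regions (%, vertical axis from 0) in which SMAD3 peak length was called higher or lower after TGF-beta by limma, for 5 classes of region, with the number called over the number tested above each bar for rises. The broad domains at gene ends (46 of 195) stand above shorter gene-end regions and below regions of 5 kb or longer away from gene ends (32 of 73), which may lie inside genes.

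The count of rises depended on the libraries and the scaling. It was 9 without vehicle replicate 4, 27 without vehicle replicate 5, 28 with no centring, 28 with 100 bp added in place of 500 and 29 with equal peak numbers in all libraries. Of the 22 domains named by rule in which SMAD3 rose, 7 passed without vehicle replicate 4 (among them GRIN2D, DVL1, CDK6, LRP1, LTBP3 and BHLHE40), and the other 15 had adjusted p values of 0.0513 to 0.267 there, in the same direction.

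In the 46 domains where SMAD3 rose, its length changed from a median of 1.35 and 1.67 kb with vehicle to 4.18 and 3.65 kb with TGF-beta, or from 19.0 and 26.7% of the domain to 64.0 and 56.3%. In all 46 both TGF-beta libraries lay above both vehicle libraries, as they did at 141 of the 198 domains. Log2 rises ran from 0.43 to 1.77, and 19 domains rose by 1 or more on the log2 scale. The remaining 149 domains had more SMAD3 with vehicle (1.76 and 2.36 kb) and ended at 2.61 kb in both TGF-beta libraries. Since the 46 were picked on this contrast, these medians are a description.

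**Figure D4:**
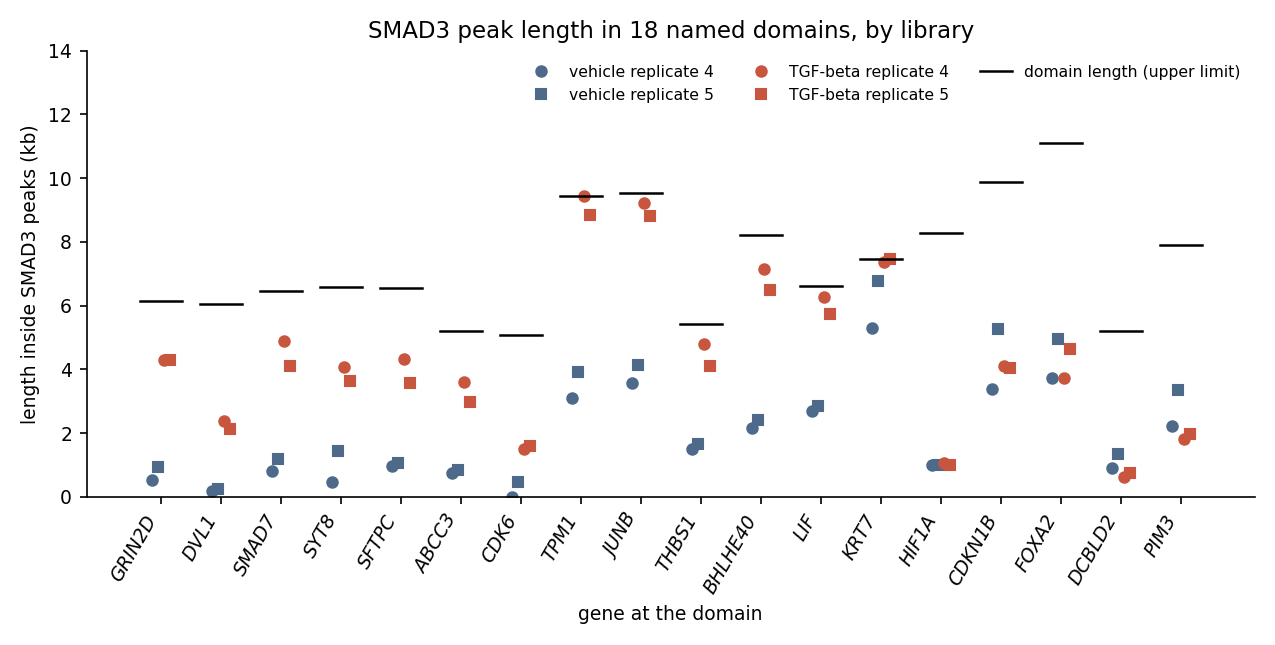
Length inside SMAD3 peaks (kb, vertical axis) in named domains, 1 point per library, with vehicle in blue and TGF-beta in red. The black bar is the length of the domain, which a value cannot exceed. At TPM1 and JUNB the TGF-beta libraries come close to the bar, while at HIF1A all 4 points lie near 1 kb.

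Among SMAD feedback genes and TGF-beta targets with a broad domain, SMAD3 rose at 3 of 4, beside 23.6% of all tested domains and 7.26% of all regions. At SMAD7 (chr18:48945642-48952089), the inhibitory SMAD that limits receptor signalling, SMAD3 peaks spanned 0.825 and 1.18 kb with vehicle and 4.88 and 4.11 kb with TGF-beta (log2 change 1.54, SE 0.124, limma adjusted p = 0.000396). The groups were well separated, but the adjusted p was 0.0513 without vehicle replicate 4. BHLHE40 went from 2.16 and 2.40 kb to 7.15 and 6.48 kb (log2 change 1.19). The domain at the gene SMAD3 itself held 1.79 and 2.41 kb with vehicle and 3.17 kb in both TGF-beta libraries and was not called (log2 change 0.30, limma adjusted p = 0.154). LTBP3, which is on no list but acts in release of latent TGF-beta, went from 0.823 and 1.03 kb to 3.81 and 3.36 kb (log2 change 1.32, SE 0.106, limma adjusted p = 0.000396).

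With 500 bp added to each length, the largest log2 change was at the GRIN2D and KDELR1 domain, with 0.544 and 0.933 kb of SMAD3 with vehicle and 4.29 and 4.3 kb with TGF-beta (log2 change 1.77, SE 0.124, limma adjusted p = 0.000297). DVL1 (chr1:1343339-1349380), a cytoplasmic transducer of WNT signals, came next with 0.171 and 0.262 kb with vehicle and 2.39 and 2.12 kb with TGF-beta (log2 change 1.74, SE 0.104, limma adjusted p = 0.000264). At DVL1 H3K27ac spanned 6.04 kb in all 4 libraries and H3K9ac between 5.74 and 5.97 kb, with overlapping H3K9ac groups. CDK6, a kinase of the G1 phase, had no SMAD3 peak in vehicle replicate 4 and 0.473 kb in replicate 5, and 1.49 and 1.61 kb with TGF-beta (log2 change 1.35, SE 0.234, limma adjusted p = 0.0141). With 100 bp added in place of 500 the order changed: the log2 change was 2.61 at DVL1, 2.49 at CDK6 (limma adjusted p = 0.105) and 2.14 at GRIN2D. The adjusted p at CDK6 was 0.107 with no centring and 0.055 with equal peak numbers in all libraries, and with 2000 bp added its log2 change was 0.58, that of DVL1 0.85 and that of GRIN2D 1.11. Rises of 1.33 to 1.46 on the log2 scale were also called at SYT8 (1.46), a synaptotagmin, at SFTPC with BMP1 (1.35), of which BMP1 is a procollagen proteinase, at ABCC3 (1.35), an exporter of bile salts and conjugates, and at LRP1 (1.33). Without vehicle replicate 4, SYT8, SFTPC and ABCC3 lost the call, and with equal peak numbers the log2 change at ABCC3 was 0.61 (limma adjusted p = 0.136).

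In the cytoskeleton and adhesion list SMAD3 rose at 5 of 9 domains (TPM1, ACTG1, TAGLN2, PFN1 and ITGB1) and fell at none, with a median log2 change of 0.43, beside 23.6% called higher and a median of 0.18 over all tested domains. At TPM1 (chr15:63040992-63050440), an alpha tropomyosin, SMAD3 spanned 3.10 and 3.93 kb with vehicle and 9.45 and 8.85 kb with TGF-beta, so that 1 library covered the whole domain (log2 change 1.07, SE 0.106, limma adjusted p = 0.00113). ACTG1 went from 3.39 and 4.12 kb to 7.22 and 7.21 kb of its 7.41 kb (log2 change 0.66, SE 0.0975, limma adjusted p = 0.00667). The groups did not overlap at ACTB, ACTN4 or TNS4 either, but these were not called. In lengths as called, both TGF-beta libraries lay above both vehicle libraries at 141 of the 198 domains. Such a separation was thus common and does not set these genes apart. ACTB held 3.42 and 4.08 kb with vehicle and 5.97 and 5.41 kb with TGF-beta (log2 change 0.34, limma adjusted p = 0.105). TPM1, ACTG1 and TAGLN2 missed the threshold without vehicle replicate 4 (adjusted p = 0.0529, 0.0877 and 0.0595).

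Of the 5 domains of AP-1 and immediate early genes, SMAD3 rose at 1 (beside 23.6% of all tested domains), that of JUNB, an AP-1 subunit, from 3.58 and 4.14 kb to 9.22 and 8.81 kb of its 9.55 kb (log2 change 0.93, SE 0.0969, limma adjusted p = 0.00145, and 0.0556 without vehicle replicate 4). H3K9ac at the JUNB domain was 9.17 and 8.87 kb with vehicle and 9.19 and 8.99 kb with TGF-beta, with overlapping groups. At MYC, the growth regulator, SMAD3 spanned 2.26 and 3.64 kb with vehicle and 3.63 and 3.33 kb with TGF-beta, with overlapping groups. DUSP1, a phosphatase of MAP kinases, was covered by SMAD3 over most of its length in all libraries, at 3.73 and 4.54 kb with vehicle and 5.34 and 5.07 kb with TGF-beta in a domain of 5.34 kb. ZFP36L1 had an adjusted p of 0.0549 (log2 change 0.43), with 5.04 and 6.24 kb with vehicle and 9.32 and 8.60 kb with TGF-beta.

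Secreted and matrix genes each gave 1 rise of 3 domains, a share that so few domains cannot tell from the 23.6% over all tested domains. At LIF, a cytokine of the interleukin-6 family, SMAD3 went from 2.69 and 2.85 kb to 6.26 and 5.75 kb (log2 change 0.79, SE 0.103, limma adjusted p = 0.00386). THBS1, thrombospondin, which can activate latent TGF-beta, went from 1.49 and 1.67 kb to 4.79 and 4.10 kb (log2 change 1.05, SE 0.111, limma adjusted p = 0.00156). Both lost the call without either vehicle library, with adjusted p of 0.0735 for both without replicate 4. PDGFB, CSF1, LAMA5 and PLOD2 were not called. Among the 4 cell cycle genes only CDK6 was called, and SMAD3 at CDKN1B, a cyclin-dependent kinase inhibitor, lay at 3.38 and 5.26 kb with vehicle and 4.10 and 4.03 kb with TGF-beta.

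The limma test called 0 of 4 domains of epithelial to mesenchymal transition genes and 0 of 4 domains of YAP targets in either direction. At an unadjusted p under 0.05 it called 0 and 1 of them, where 82 of all 195 tested domains had such a p. These counts are given without the share over all regions at that cut. The median log2 changes of the 2 lists were 0.04 and -0.02. AJUBA, a LIM protein of cell junctions, had SMAD3 over most of its 6.08 kb throughout, at 4.67 and 5.10 kb with vehicle and 5.09 and 4.72 kb with TGF-beta. TGFB2, a ligand of the pathway, held 2.56 and 2.66 kb with vehicle and 2.80 and 2.96 kb with TGF-beta. HIF1A, the hypoxia factor, stayed near 1 kb of its 8.27 kb domain, with 0.989 and 0.986 kb with vehicle and 1.07 and 0.988 kb with TGF-beta. KRT7 was covered to 5.29 and 6.76 kb with vehicle and 7.38 and 7.45 kb with TGF-beta in a domain of 7.45 kb, which left no room above, and FOXA2 had overlapping groups (3.73 and 4.95 kb, 3.73 and 4.64 kb).

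SMAD3 fell at 2 domains. At PIM3 (chr22:49960456-49968380) it spanned 2.23 and 3.34 kb with vehicle and 1.83 and 1.98 kb with TGF-beta (log2 change -0.63, SE 0.131, limma adjusted p = 0.0297). At DCBLD2, a transmembrane receptor-like protein, it spanned 0.896 and 1.34 kb with vehicle and 0.635 and 0.764 kb with TGF-beta (log2 change -0.62, SE 0.119, limma adjusted p = 0.0221). Both groups were separate but close, and neither call held without centring (adjusted p = 0.264 and 0.226) or without either vehicle library. With equal peak numbers the log2 change at PIM3 was -1.24. PIM3 was also among the domains with the largest shortening of H3K9ac (7.66 and 7.58 kb with vehicle, 5.17 and 5.95 kb with TGF-beta), whereas H3K9ac at DCBLD2 was 4.86 to 5.21 kb in all libraries.

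**Figure D5:**
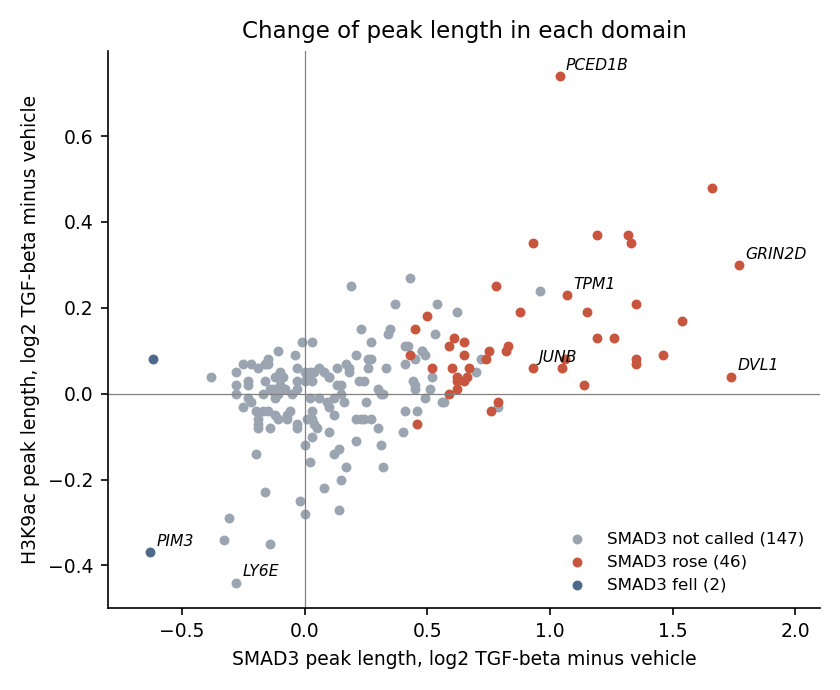
Centred log2 change of H3K9ac peak length (vertical axis) against that of SMAD3 peak length (horizontal axis), 1 point for each of the 195 tested domains, coloured by the SMAD3 call. Red points, where SMAD3 rose, lie mostly above 0 on the H3K9ac axis (42 of 46), with PCED1B highest.

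Domains in which SMAD3 lengthened tended to be those in which H3K9ac did. Of the 46 domains with a SMAD3 rise, 42 had a centred H3K9ac log2 change above 0 (median 0.10), and of the other 149 tested domains 81 did (median 0.01). In lengths as called, 23 of the 46 were longer in H3K9ac in both TGF-beta libraries and 5 shorter, while among the 149 it was 14 longer and 59 shorter. Over all regions called in all 4 H3K9ac libraries 14.4% were longer and 33.3% shorter. H3K27ac was at least 90% in all 4 libraries in 32 of the 46, and its median log2 change was 0.02 in the 46 and -0.01 in the 149. Across the 195 tested domains Spearman's rho was 0.516 between the SMAD3 and H3K9ac changes and 0.431 between the SMAD3 and H3K27ac changes, and rho between domain length and the SMAD3 change was 0.145. These are descriptions across domains that share the same libraries, not a test. The 6 domains with the largest H3K9ac lengthening among those whose groups did not overlap, which include BHLHE40, LTBP3, LRP1, TAGLN2 and PCED1B, all had a SMAD3 rise. Such a rise was called at 23.6% of all tested domains and 7.26% of all regions tested. The 6 were picked by their H3K9ac lengths, and whether other H3K9ac regions show the same link was not tested. At PCED1B SMAD3 spanned 1.38 and 1.64 kb with vehicle and 4.69 and 3.84 kb with TGF-beta (log2 change 1.04, SE 0.12, limma adjusted p = 0.00224, and 0.0977 without vehicle replicate 4).

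Of the domains, 9 held a RefSeq miRNA hairpin, and 48 held the start of a RefSeq gene outside the protein-coding set. The mature arms of the 2 best known miRNAs are shown 5′ to 3′ from RefSeq GRCh38.p14, with their seeds, bases 2 to 8, in capitals, because their hairpins lay inside acetylated chromatin that SMAD3 also occupied.
hsa-miR-21-5p, chr17:59841273-59841294, plus strand: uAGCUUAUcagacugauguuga
hsa-miR-26b-5p, chr2:218402657-218402677, plus strand: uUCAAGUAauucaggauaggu
The MIR21 hairpin lay in the domain at the 3′ end of VMP1 (chr17:59837935-59843327), a gene of autophagosome formation. There H3K9ac spanned 5.30 to 5.39 kb in all 4 libraries, and SMAD3 4.33 and 4.62 kb with vehicle and 5.33 and 5.39 kb with TGF-beta, which is the full 5.39 kb (log2 change 0.04, limma adjusted p = 0.835). MIR26B lay in the domain of CTDSP1, a small phosphatase, where SMAD3 spanned 3.23 and 3.36 kb with vehicle and 3.83 and 4.10 kb with TGF-beta (log2 change 0.03, limma adjusted p = 0.864). Neither domain was called, and the lengths say nothing of the miRNAs' own levels.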

How the data were processed

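H3K9ac, H3K27ac and SMAD3 ChIP-seq peaks of 12 libraries were used, and 4 input samples were not used here. The authors deposited 1 peak list per library with a score that is −log10 of a p or q value (no label or header says which of the 2). Per the submitters' processing notes, BWA, Picard, MACS2, bedtools and the build hg38 were used; the sources used here give no versions or cutoffs. The files hold no read counts, so sequencing depth and counting error are unknown. Peaks were used whatever their score, with a smallest score of 2.00 to 2.04 per library.

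The value of a region was the length in bp inside a target's peaks. It was analysed as log2(length + 500 bp), which understates changes of short lengths, for regions with a mean of at least 500 bp, centred on the median over regions covered in all 4 libraries of the target. The centring removed a shift between treatments of 0.20 (log2) in SMAD3, 0.02 in H3K27ac and -0.05 in H3K9ac. The treatment effect was fitted over all regions by limma 3.58.1 (R 4.3.3), with Benjamini-Hochberg adjustment and a threshold of 0.05. Sums over domains were compared with an exact permutation test. The fit was also run on simulated lengths that had the same spread in all regions and no ceiling at the region's length. Such lengths cannot show how the calls hold in the real data, which have that ceiling. Other steps used Python 3.11.15, pandas 2.3.3, numpy 2.4.6, scipy 1.17.1 and matplotlib 3.10.9.

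Genes, promoters and miRNAs came from RefSeq GRCh38.p14 (19974 protein-coding genes, 15813 with a strand); no exon models were used here. The domains and the 21 gene lists (447 genes) were chosen with earlier results of these data known. Named domains were the 12 longest, up to 8 rises and 8 falls per target whose groups did not overlap, up to 4 per list by length, the 6 largest H3K9ac changes each way, 3 each side of 5 kb, and genes fixed by name. Other domains are named as members of a list, by a miRNA they hold, or after their values were seen. Alternatives were other pseudocounts, filters, centring, peak numbers, windows, limma options, merging rules, a replicate block and leaving out each library. Results for a few named domains are not reported here.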

Additional observations from a re-analysis of the deposited data

How the results depend on the processing

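The number of domains was 184 with an overlap of 100 bp for merging, 192 with peaks of score 5 or more and 152 to 191 with 1 H3K9ac library left out. It was 471 with a minimum of 4 kb, 8 with 10 kb, and 115 where each library alone had to hold 5 kb. Centring moved the median H3K9ac log2 change from -0.020 to 0.033, with 61 domains longer and 37 shorter.

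SMAD3 rises (46) numbered 28 with a pseudocount of 100 bp, 28 with no centring, 29 with equal peak numbers in all libraries, and 9 to 58 with 1 library left out. SMAD3 falls (2) numbered 0 with no filter and with no centring, 1 with the same number of peaks and with 5 kb added on each side, and 0 to 2 with 1 library left out. SIM2, which rose by 0.62, had a log2 change of -0.04 with equal peak numbers in all libraries; the cause was not tested. The SMAD3 total ratio of 1.5 was 1.32 to 1.74 with 1 library left out (added after seeing the data).

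H3K27ac rises (1) numbered 4 with a pseudocount of 2000 bp, 6 with no filter, 2 with no centring, 6 with 5 kb added on each side, 2 with trend and robust options and 0 to 6 with 1 library left out. H3K27ac falls (0) numbered 2 with no filter, 11 with 5 kb added and 0 to 3 with 1 library left out. A lone library of a group is assumed to vary like the others. The cause of these differences was not tested.

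Same-numbered libraries did not deviate together (correlations over regions of -0.0758 in H3K9ac, -0.0346 in H3K27ac and -0.000448 in SMAD3). Such a correlation cannot show whether same-numbered libraries came from a shared culture, and no label says so. Whether the numbers pair the samples therefore stays unknown. With a replicate block SMAD3 rose at 63 domains and fell at 2, and H3K27ac rose at 7 and fell at 4. Depth is unknown, and length inside peaks has a ceiling at the domain's length, which limits how large a rise can be seen.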
